A study of Mus musculus with 6 samples.

Results

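The 9 genes described here belong to the antioxidant program governed by the transcription factor NRF2: Nfe2l2, Keap1, Nqo1, Gclc, Gclm, Txnrd1, Srxn1, Prdx1 and Gpx4. They were chosen by name, from what is known of the pathway, but with earlier results of these data already known. All 9 were found among the 47643 genes of the count files by matching Ensembl identifiers to GRCm38 gene symbols. All 9 also passed the filter on low counts that 12563 genes passed in all. A further 84 genes of the pathway and of neighbouring antioxidant systems were listed by role beside them.

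The cells came from 6 mammary tumors of MMTV-PyMT mice, strain FVB/N-Tg (MMTV-PyVT)634Mul/J, in which a mammary tumor virus promoter drives the polyoma middle T oncogene in mammary epithelium. All of them had been given B20-4.1.1, which neutralises mouse VEGF-A and is the murine counterpart of bevacizumab, at 5 mg/kg by intraperitoneal injection, 2 times per week for 6 weeks starting at 7 weeks of age. Tumor cells were sorted as CD45-EPCAM+, and, by the study's methods, also as CD31- and PDGFRα-. The labels assign the 6 tumors to 1 treatment and to no hypoxia class, so no groups were compared, and a vehicle-treated control was not analysed here. Tumors are numbered 1 to 6. Mouse identifiers carry the prefix QAF for 4 tumors (1, 4, 5 and 6) and QSD for 2 tumors (2 and 3), and the labels do not say what the prefix stands for. Nothing in the labels says more on whether the tumors came from separate mice, so p-values measure the spread between these samples only.

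Libraries were made with a 3′ method that samples the stretch before the poly(A) tail, and the deposited values were raw counts per gene. Counts on genes ran from 2509482 to 5893246 per tumor, so that 3 counts, taken as the floor of detection, stood for 0.509 to 1.20 CPM (counts scaled by the total on genes in the library). Luminal epithelial markers summed to between 3957 and 4874 CPM and basal ones to between 122 and 499 CPM. Of 13 immune markers, 9 exceeded the floor in some tumor and they summed to 104 to 306 CPM, highest in tumor 3. Ptprc (CD45) was at no more than 3.39 CPM. In tumor 3, Lyz2 was at 148 CPM (3.19 to 24.6 elsewhere), C1qa at 17.7 (at most 4.75 elsewhere) and Csf1r at 15.5 (at most 3.90 elsewhere). These genes are named after their values were seen. In tumor 4 the immune sum was 247 CPM, with Lyz2 at 3.19, C1qa at 1.70 and Csf1r at 1.49 CPM. In tumor 1 the sum was 216 CPM, with Lyz2 at 12.0, C1qa at 4.75 and Csf1r at 3.90 CPM. Other listed immune markers thus made up most of the sum in tumors 1 and 4. All 6 fibroblast markers exceeded the floor in some tumor and summed to 15.3 to 26.4 CPM. The 5 endothelial markers, 2 of them over the floor, summed to at most 4.61 CPM. The library of tumor 1 stood apart, with a median Pearson correlation of 0.788 with the other libraries over 8873 genes, against 0.905 to 0.939 for the others. Values are therefore also given without tumor 1 where it moves them. In bulk samples such as these, fewer cells expressing a gene and less of its RNA per cell cannot be told apart.

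NRF2, encoded by Nfe2l2, is held at low levels by KEAP1, an adaptor that presents it to a CUL3 ubiquitin ligase. When electrophiles or peroxides modify cysteines of KEAP1, NRF2 escapes degradation, enters the nucleus, pairs with small MAF proteins and binds antioxidant response elements. Its targets make glutathione, reduce thioredoxin and peroxiredoxins, supply NADPH and detoxify quinones. Because NRF2 is controlled mainly through the stability of the protein, the mRNA of Nfe2l2 is a poor measure of its activity, and the mRNAs of its targets are the usual readout.

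The letters TGACNNNGC, the core shared by antioxidant response elements, were searched on both strands in RefSeq promoter windows of GRCm38.p6 that run from 250 bases before to 50 after a transcript start. Windows were found for 8 of the 9 genes, and 5 of these 8 held a match. Over all genes with a window, 14.0% of 27025 held one, and of the other pathway genes 14 of 74 did. The matches in these genes are shown so that the genes that hold the letters can be told from those that do not, and a match is a description of the sequence, not a bound site. Each is printed 5′ to 3′ on the strand of the match, with the core in capitals.
Nfe2l2: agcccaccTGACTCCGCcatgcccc
Gclm: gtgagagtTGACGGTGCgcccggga
Txnrd1: tgtcagaaTGACAAAGCaaaaatcc
Srxn1: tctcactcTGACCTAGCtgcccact
Prdx1: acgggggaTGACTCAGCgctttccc

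The match of Nfe2l2 lies on the minus strand at chr2:75704887-75704911, 240 bases before the start. That of Gclm is on the minus strand at chr3:122245415-122245439, 134 bases before the start, and that of Prdx1 on the minus strand at chr4:116685458-116685482, 133 bases before. For Txnrd1 the match is on the minus strand at chr10:82859106-82859130, 92 bases before 1 of its 3 listed starts. Srxn1 has its match on the minus strand at chr2:152105544-152105568, 28 bases after the start. The match of Prdx1 was the only one of these 5 that also holds TGACTCA, the letters bound by AP-1 factors. The windows of Keap1, Nqo1 and Gpx4 held no match, which says only that these letters are not in these windows, and Gclc had no window.

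The 9 genes differed widely in level. On the CPM scale, which fits a method that gives about 1 tag position per transcript, medians over the 6 tumors ran from 605 CPM for Prdx1 down to 8.58 CPM for Gpx4, in the order Prdx1, Keap1, Txnrd1, Nfe2l2, Gclm, Gclc, Nqo1, Srxn1, Gpx4. Per length, in TPM (counts scaled by exon length and by the library), the median was again highest for Prdx1 (505 TPM) and lowest for Gpx4 (12.6 TPM), while the genes between them changed places: Keap1 56.4, Nqo1 46.2, Nfe2l2 41.8, Txnrd1 27.4, Srxn1 25.1, Gclc 21.3 and Gclm 19.2 TPM. Neighbours in the CPM order were compared within each tumor by an exact two-sided sign-flip permutation test on log2 CPM, with adjustment over the 8 pairs. Prdx1 over Keap1, Gclm over Gclc and Srxn1 over Gpx4 held in 6 of 6 tumors, each with an exact p = 0.03125, the smallest 6 tumors allow, and adjusted p = 0.0833. The place of Gpx4 in either order is uncertain, since its 3′ end is shared with a pseudogene, as described below. None of the 8 neighbour pairs passed the adjustment, and with 8 pairs and 6 tumors at least 6 pairs would have to reach the smallest p for any to pass. Per length, Prdx1 over Keap1 likewise held in 6 of 6 tumors (exact p = 0.03125, adjusted p = 0.25). Gclm over Gclc did not, since Gclm was the higher in only 2 of 6 tumors and the mean log2 difference was 0.02 (exact permutation test, adjusted p = 0.969). Txnrd1 over Nfe2l2, Gclc over Nqo1 and Nqo1 over Srxn1 turned the direction of their mean difference between the CPM and TPM scales, so the middle of the order is not settled by these data.

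**Figure D1:**
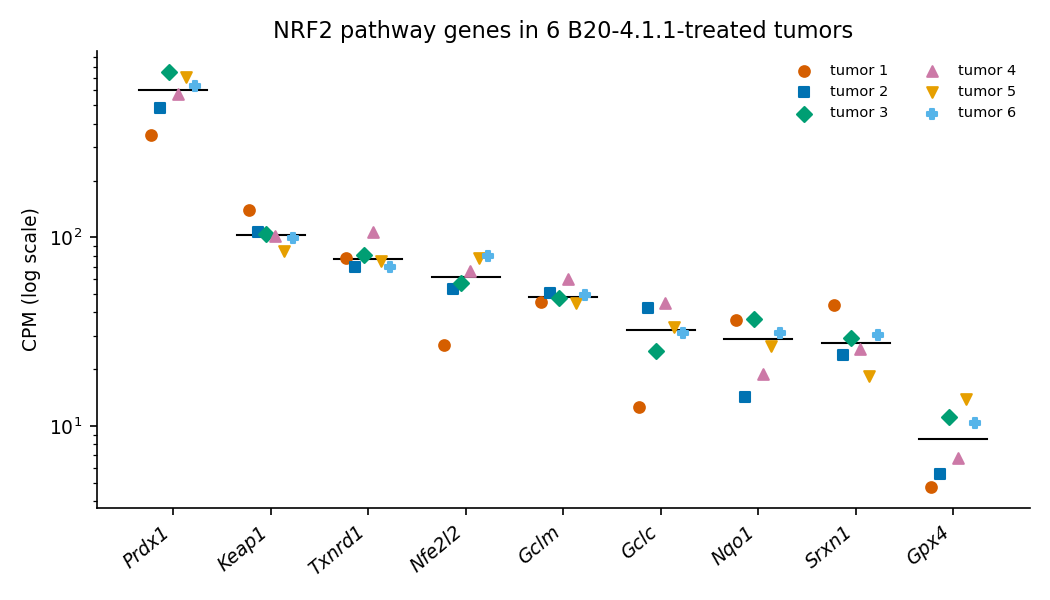
CPM (log scale) of the 9 NRF2 pathway genes in each of the 6 tumors, 1 symbol per tumor, ordered by median, with a line at the median. Prdx1 lay at 347 to 756 CPM in all tumors and Gpx4, whose level is uncertain, at 4.75 to 14.0 CPM. Tumor 1 was the lowest for Nfe2l2 and Gclc and the highest for Keap1 and Srxn1.

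Nfe2l2 (ENSMUSG00000015839, chr2:75675513-75704641, minus strand), the gene of NRF2 itself, was at 26.8 CPM in the lowest tumor, 61.5 at the median and 80.0 in the highest. Tumor 1 was the lowest and the other 5 tumors lay between 53.4 and 80.0 CPM, so that the range of 2.99-fold over 6 tumors became 1.50-fold without it. The exact Poisson 95% interval of tumor 1, 22.8 to 31.3 CPM, did not reach the others, but it covers counting error only, as do all such intervals here.

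Keap1 (ENSMUSG00000003308, chr9:21229730-21239361, minus strand), which encodes the adaptor that directs NRF2 to degradation, ran from 84.9 through a median of 103 to 139 CPM. Tumor 1 was the highest and tumor 5 the lowest, and without tumor 1 the 5 tumors lay within 1.25-fold. The ratio of Nfe2l2 to Keap1 within a library does not depend on scaling, but these genes differ in GC content (46.8% and 58.0%). It was 0.193 in tumor 1 and between 0.502 and 0.918 in the other 5. The range of this ratio was 4.76-fold, and 1.83-fold without tumor 1.

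Nqo1 (ENSMUSG00000003849, chr8:107388225-107403206, minus strand), encoding a quinone reductase and the most used readout of NRF2 activity, ran from 14.3 through a median of 28.9 to 37.1 CPM. Tumor 2 was the lowest, tumor 4 was next at 18.9 CPM, and tumors 3 and 1 were the highest at 37.1 and 36.5 CPM. The counts behind these values were few, 36 in tumor 2, with a Poisson interval of 10.1 to 19.9 CPM. The 2.59-fold range held without tumor 1, and TMM scaling (edgeR's trimmed mean of M values) placed tumor 1 highest in place of tumor 3.

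Srxn1 (ENSMUSG00000032802, chr2:152105516-152111376, plus strand), encoding sulfiredoxin, which restores over-oxidised peroxiredoxins, was measured at 18.4 CPM at the lowest, 27.4 at the median and 43.8 at the highest. Tumor 1 was the highest and tumor 5 the lowest, and the 2.38-fold range became 1.65-fold without tumor 1. The order of tumors was not that of Nqo1: tumor 2, the lowest there, was at 23.9 CPM here, above tumor 5.

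Gclc (ENSMUSG00000032350, chr9:77754535-77794485, plus strand) and Gclm (ENSMUSG00000028124, chr3:122245557-122270732, plus strand) encode the catalytic and the modifier subunit of glutamate-cysteine ligase, the rate-limiting enzyme of glutathione synthesis. Over the 6 tumors Gclc had the widest range of the 9 genes, with 12.6 CPM in the lowest tumor, 32.3 at the median and 45.1 in the highest. Tumor 1 was the lowest, tumor 3 the next lowest and tumor 4 the highest, and the 3.59-fold range became 1.81-fold without tumor 1, when Nqo1 (2.59-fold) and Gpx4 (2.51-fold) ranged wider. Gclm had the narrowest range over the 6 tumors, from 44.9 through a median of 48.4 to 60.4 CPM, or 1.34-fold, with tumor 4 highest and the other 5 tumors at 44.9 to 51.0 CPM. Its range was the same without tumor 1, when that of Keap1 was narrower (1.25-fold). The ratio of Gclc to Gclm was thus 0.276 in tumor 1 and 0.526 to 0.828 in the others. The range of the ratio was 3.00-fold, and 1.58-fold without tumor 1.

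Txnrd1 (ENSMUSG00000020250, chr10:82833951-82897712, plus strand), the cytosolic thioredoxin reductase, ran from 69.3 through a median of 76.6 to 106 CPM. Tumor 4 stood above the other 5, which lay at 69.3 to 80.3 CPM. Tumor 4 was also the highest for Gclc and Gclm, so that it held the top value of 3 of the 9 genes. It held that of 11.15% of all 12563 genes, and the difference between these shares was not tested.

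Prdx1 (ENSMUSG00000028691, chr4:116685544-116700822, plus strand), an abundant peroxiredoxin that reduces hydrogen peroxide, was at 347 CPM in the lowest tumor, 605 at the median and 756 in the highest. Tumors 1 and 2 were the lowest, at 347 and 481 CPM, and tumor 3 was the highest. Against its partner enzymes the pattern differed by gene: the ratio of Srxn1 to Prdx1 was 0.126 in tumor 1 and 0.0260 to 0.0497 in the others, and that of Txnrd1 to Prdx1 ran from 0.106 to 0.225. The range of the Srxn1 to Prdx1 ratio was 4.85-fold, and 1.91-fold without tumor 1.

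Gpx4 (ENSMUSG00000075706, chr10:80047166-80056439, plus strand), which reduces lipid hydroperoxides and protects cells from ferroptosis, had the fewest reads, with 14 to 70 counts per tumor. Its level was 4.75 CPM in the lowest tumor, 8.58 at the median and 14.0 in the highest, with tumors 1 and 2 lowest and tumor 5 highest. Of the 251 windows of 50 bases in the last 300 bases of its longest coding transcript, 98.4% occur also in the pseudogene Gpx4-ps2, so reads from this end may not have been assigned to Gpx4 and its level is uncertain. The 3′ ends of the remaining 8 genes shared 0 windows with any other gene of the annotation.

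**Figure D2:**
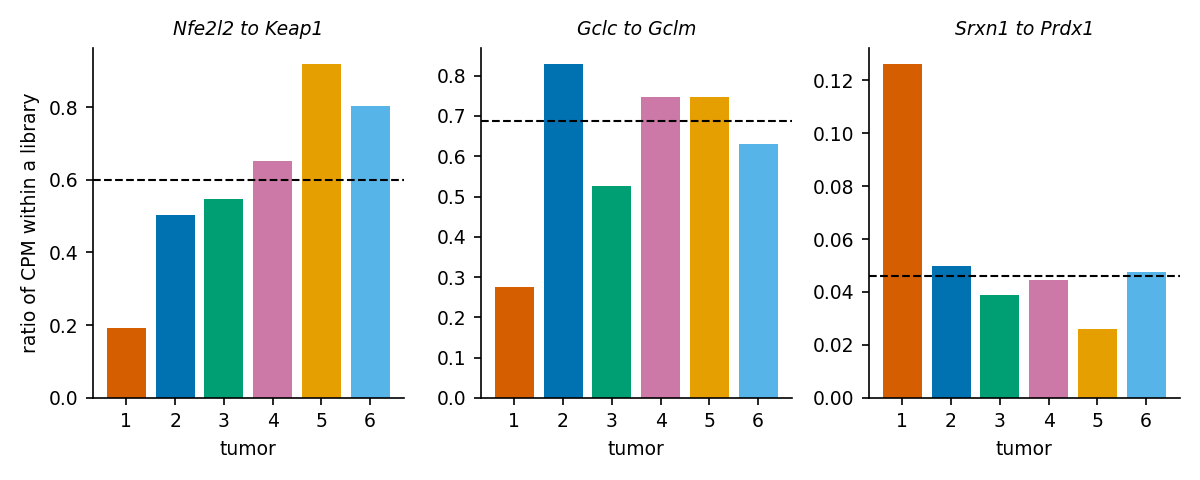
Ratio of the CPM of paired genes within each of the 6 libraries: Nfe2l2 to Keap1, Gclc to Gclm and Srxn1 to Prdx1, with 1 bar per tumor and a dashed line at the median. Tumor 1 had the lowest value of the first 2 ratios (0.193 and 0.276) and the highest of the third (0.126).

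Against edgeR's trend of dispersion with abundance over 12563 genes, Gclm (percentile 8.45), Txnrd1 (12.3) and Keap1 (17.0) varied little for their level. Gclc (percentile 79.5) and Nfe2l2 (73.4) varied more than most genes of their level. These percentiles hold for all 6 tumors and were not computed without tumor 1, where the ranges of Gclc and Nfe2l2 fell to 1.81-fold and 1.50-fold. The targets Nqo1 (62.0), Srxn1 (49.5) and Prdx1 (46.1) lay near the middle.

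**Figure D3:**
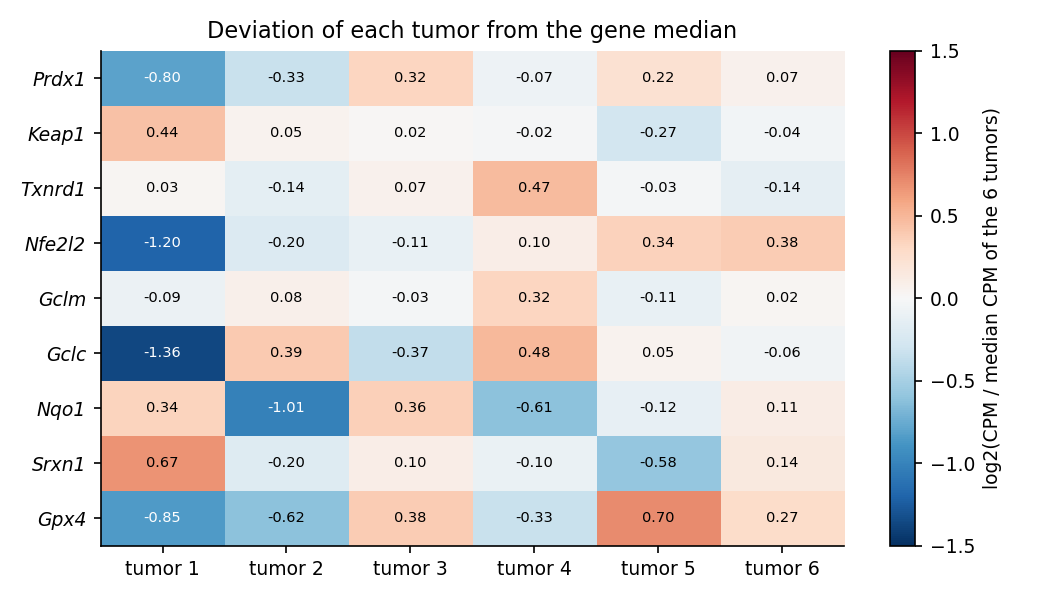
Log2 of the CPM over the median CPM of the 6 tumors, for each of the 9 genes (rows) and each tumor (columns), with red above and blue below the median. Tumor 1 ranged from -1.36 for Gclc to 0.67 for Srxn1, and no tumor was above the median for all 9 genes or below it for all 9.

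Tumor 1 held the highest value of 2 genes (Keap1, Srxn1) and the lowest of 4 (Nfe2l2, Gclc, Prdx1, Gpx4). These 6 placements were the same under TMM scaling, DESeq2's size factors and CPM without the 10 most abundant genes of each library. Tumor 1 became the highest also for Nqo1 under TMM and size factors. It became the lowest for Gclm under size factors, and for Gclm and Txnrd1 without the 10 most abundant genes. In CPM, the library of tumor 1 was the highest or the lowest for 62.6% of the 12563 genes, so 6 of 9 is close to what held across all genes. That share was not computed on the other scales. The difference of tumor 1 from the median of the other 5, on the log2(CPM + 1) scale, was -1.35 for Gclc, -1.27 for Nfe2l2, -0.98 for Gpx4 and -0.87 for Prdx1. On the same scale it was 0.76 for Srxn1, 0.46 for Keap1 and 0.44 for Nqo1, against a median of 0.07 over all genes. Gclm (-0.11) and Txnrd1 (0.06) lay close to that median.

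The GC content of transcripts moved with the place of tumor 1. Over 12537 genes, this difference had a Spearman rho of 0.409 with the GC content of the longest annotated transcript, as a description across genes of the same libraries, which are not independent replicates. In the fifth of genes with the lowest GC content its median was -0.49, and in the fifth with the highest 0.58. The corresponding rho of the other tumors lay between -0.33 (tumor 4) and 0.11 (tumor 3). In tumor 4 the trend thus ran toward genes poorer in GC. Its part in the top values of Gclc, Gclm and Txnrd1 in that tumor was not tested. Among the genes that were high in tumor 1, GC content was 58.0% for Keap1, 53.3% for Srxn1 and 46.8% for Nqo1, and among the low ones 46.8% for Nfe2l2, 47.7% for Gclc and 42.3% for Prdx1, while Gpx4 was low at 60.2%. The share of mitochondrial counts was lowest in tumor 1 as well (7.50%, against up to 14.4%), and so was the sum of fibroblast markers, while its sums of luminal, basal, immune, endothelial, adipocyte and erythroid markers lay within the range of the other tumors. Among luminal markers, Krt8 (617 CPM, 218 to 326 elsewhere), Cldn3 (638, 238 to 319) and Krt19 (319, 164 to 302) were highest in tumor 1. Cdh1 was lowest there (1176 CPM, 1255 to 1798 elsewhere), and Epcam, Krt18 and Cldn7 lay within the range. In tumor 1 the ratios of Nfe2l2 to Keap1 and of Srxn1 to Prdx1 leaned to the gene richer in GC. That of Gclc (47.7%) to Gclm (42.1%) leaned to the gene poorer in GC. The part of GC content, mitochondrial share and cell composition in these values and ratios was not tested.

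**Figure D4:**
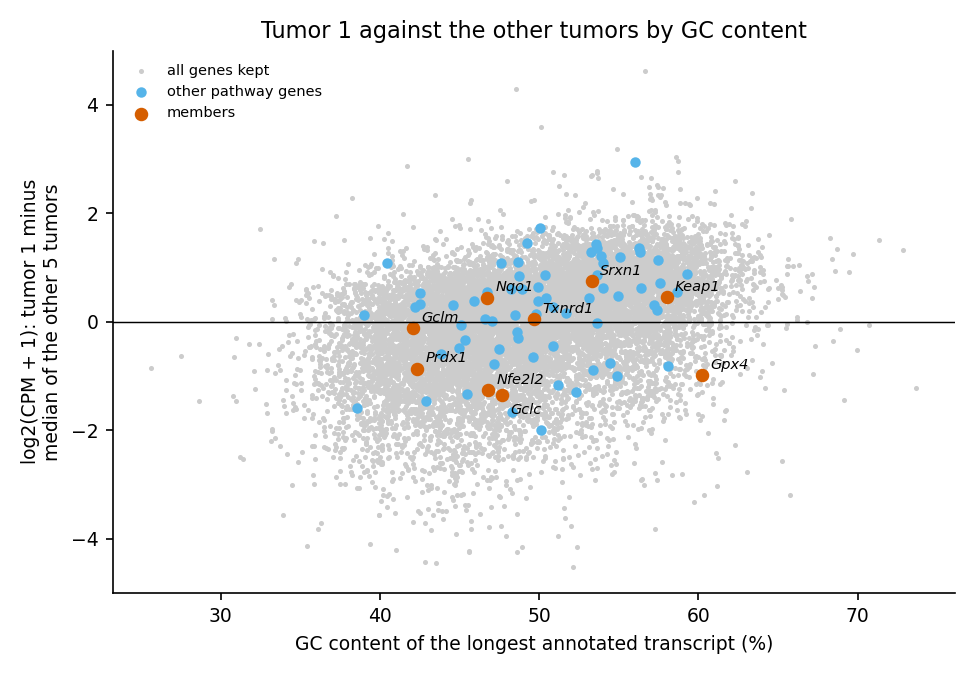
Difference of tumor 1 from the median of the other 5 tumors in log2(CPM + 1) (vertical axis) against the GC content of the longest transcript in percent (horizontal axis), for all genes kept (grey), the other pathway genes (blue) and the 9 genes named (orange). The grey cloud climbs with GC content (rho 0.409), and Gpx4, at 60.2% GC, lies below it; 2 grey points lie beyond the vertical axis.

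Whether the genes varied together over the 6 tumors was asked of all 36 pairs, as Pearson's r of log2(TMM-scaled CPM + 1) with an exact two-sided permutation p over the 720 orders. There were 18 positive and 18 negative correlations, and 4 pairs, all positive, had an unadjusted exact p under 0.05. Against all other genes, the 9 genes passed that p in 10.7% of 113058 pairs, beside which 4 of 36 is no result about these genes. On the CPM scale without TMM, 6 of the 36 pairs passed it. None of the 36 pairs passed adjustment over all genes tested against either member of the pair, the smallest adjusted value being 0.223 (Prdx1 among the genes tested against Gpx4).

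Prdx1 and Gpx4 had the smallest p of the 36, with r = 0.908 (exact permutation p = 0.00833, rho = 0.771, exact p = 0.103), and the r was 0.881 once the 2 tumors farthest from the Prdx1 median were left out. Keap1 ran with Srxn1 at r = 0.924 (exact permutation p = 0.0306, rho = 0.6, exact p = 0.242), but the r was 0.320 without the 2 tumors farthest in Keap1, so the relation rests on those tumors, tumor 1 among them. Nfe2l2 and Prdx1 had r = 0.878 (exact permutation p = 0.0333, rho = 0.429, exact p = 0.419), and 0.286 without 2 tumors, so this relation rests on those left out as well.

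Nfe2l2 and Gpx4 had r = 0.768 (exact permutation p = 0.0486, rho = 0.771, exact p = 0.103), and 0.535 without 2 tumors. The level of Gpx4 in these pairs carries the uncertainty of its shared 3′ end. A relation within a prefix could not be given, since the prefixes hold 4 and 2 tumors.

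The genes whose pattern over the 6 tumors was most like that of Nqo1, among 3766 genes whose mean reached 50 CPM, were Srp14 (r = 0.990), Ngrn (r = 0.985) and Glrx5 (r = 0.983). For Srxn1 they were Smpdl3a (r = 0.998), Crispld2 (r = 0.988) and Folr1 (r = 0.987). None of these had an adjusted p under 0.05. None was among the 84 pathway genes either, but only 3 of 3766 were named, and pathway genes under 50 CPM were not compared. Their absence therefore says nothing about the pathway.

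Since hypoxia is the axis on which the study classed its tumors, the 9 genes were set against a 3-gene hypoxia score, the mean TPM of Vegfa, Slc2a1 and Car9, all known targets of hypoxia-inducible factors. From tumor 1 to tumor 6 in turn, the score was 48.5, 37.2, 51.4, 76.6, 94.4 and 47.3 TPM, so that tumors 5 and 4 were the highest and tumor 2 the lowest. Taken as the mean of log2 TPM, an alternative form, tumors 5 and 4 were again the highest, but tumor 1 (4.86) was the lowest and tumor 2 (4.89) the next. The score as mean TPM was entered as a continuous log2 term in edgeR's quasi-likelihood test over all 12563 genes.

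By edgeR's quasi-likelihood test, 0 of the 12563 genes (0%) had a Benjamini-Hochberg adjusted p under 0.05, and 542 genes (4.31%) had an unadjusted p under 0.05. Of the 9 genes, 0 passed at either threshold, and DESeq2's Wald test, which called 19 genes in all, called 0 of them. The slopes, in log2 CPM per doubling of the score, were 0.57 for Gpx4 (95% interval -0.57 to 1.70) and -0.57 for Srxn1 (-1.45 to 0.32) at the extremes. Tumor 5, which had the highest score, weighed on both, since without it they were 0.03 and -0.18. For Nqo1 the slope was -0.12 (-1.19 to 0.94), for Nfe2l2 0.33 (-0.66 to 1.31) and for Gclm -0.03 (-0.72 to 0.66). In all, 5 slopes were positive and 4 negative, and the smallest adjusted p was 0.951.

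**Figure D5:**
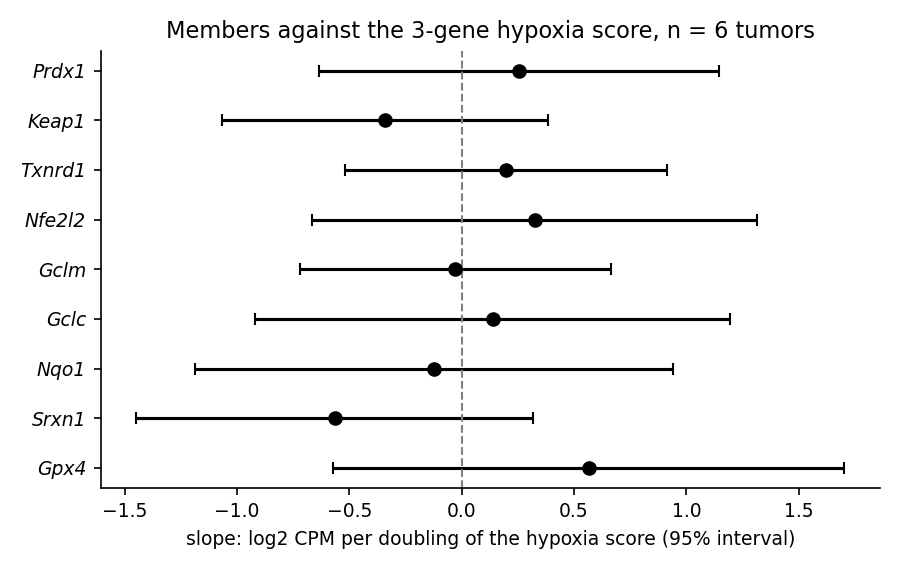
Slope of each of the 9 genes on the 3-gene hypoxia score, in log2 CPM per doubling of the score, from the fit over all genes and 6 tumors; points are estimates and bars 95% intervals. Every interval crosses 0, from -0.57 for Srxn1 to 0.57 for Gpx4.

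By the exact permutation test on Pearson's r, 541 of the 12563 genes (4.31%) and 0 of the 9 had an unadjusted p under 0.05. Keap1 had the largest r in size, -0.705 (exact permutation p = 0.133, rho = -0.771, exact p = 0.103), and -0.016 once the 2 tumors farthest from the median score were left out, so that it rests on those tumors. The intervals leave room for sizeable slopes in either direction, which 6 tumors could not show.

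Of the 84 other pathway genes, 76 exceeded the floor in some tumor, 64 in all 6, and 67 passed the filter. None of the 67 was called for the score by edgeR's quasi-likelihood test, 33 slopes were positive and 34 negative, and 3 had an unadjusted p under 0.05 (Mthfd2, Abcc1 and Osgin1, named after their values were seen), with an adjusted p of 0.951 each. Over all 12563 genes, 4.31% had an unadjusted p under 0.05 in that test, beside which 3 of 67 is no result about the pathway genes. Tumor 1 was the highest for 33 and the lowest for 16 of the 67, beside 62.6% of all genes at either end. The median difference of tumor 1 from the others over the 67 was 0.33 on the log2(CPM + 1) scale, and 45 of them were higher there, against 52.7% of all genes.

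Among the regulators of NRF2, Sqstm1, whose protein p62 sequesters KEAP1, ran from 526 through a median of 634 to 911 CPM, and Mafg, a small MAF partner of NRF2, from 129 through 234 to 272 CPM. Tumor 1 was the highest for Sqstm1 and the lowest for Mafg. The 3′ ends of both overlap another gene, Mrnip on the opposite strand of Sqstm1 and Sirt7 on the same strand as Mafg. Whether counting used the strand is not given in the sources used here, and the overlap of Mafg would remain with either setting.

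In glutathione synthesis and recycling, Slc3a2, the heavy chain of the cystine transporter, had a median of 311 CPM (176 to 365), lowest in tumor 1, and Glrx, a glutaredoxin, 19.2 CPM (12.4 to 22.5). Slc7a11, the light chain that carries cystine and a frequent NRF2 target, was at 0.586 to 2.13 CPM, within a few counts of the floor in every tumor, and is named after its values were seen. Among the peroxidases and transferases, Gpx1 had a median of 487 CPM (318 to 580) and Mgst1 of 429 CPM (247 to 527), both lowest in tumor 2. Gpx3 (5.98 CPM at the median, 52.8 in tumor 1) and Gstm5 (25.1 CPM at the median, 76.9 in tumor 1) stood out in tumor 1.

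Of the thioredoxin and peroxiredoxin system, Txn1, the cytosolic thioredoxin, ran from 158 through a median of 232 to 489 CPM, lowest in tumor 1 and highest in tumor 5. Its relative Txn2 in mitochondria ran the other way, at 176 CPM in tumor 1 against 52.6 to 70.6 CPM elsewhere. Among the peroxiredoxins, Prdx2 (183 CPM in tumor 1, 77.6 at the lowest), Prdx5 (226 and 66.1 CPM) and Prdx6 (303 and 174 CPM) were highest in tumor 1. Prdx1 and Prdx3 (9.16 CPM in tumor 1, 12.4 to 27.6 CPM elsewhere) were lowest there, and Prdx4 (48.2 CPM) lay among the other tumors, both of the last being named after their values were seen. Txnrd2, the mitochondrial reductase, was at 39.9 CPM in tumor 1 and at 14.8 to 23.5 CPM in the other 5.

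In the supply of NADPH, Tkt, a transketolase, had a median of 301 CPM (210 to 523) and Pgd, a dehydrogenase of the pentose phosphate pathway, of 267 CPM (154 to 340). Pgls, the lactonase of that pathway, was at 244 CPM in tumor 1 and at 95.9 to 133 CPM in the others, and Taldo1, transaldolase, at 402 CPM against 168 to 240 CPM. Pgls, Taldo1 and Tkt were thus all highest in tumor 1, and Pgd was highest in tumor 3.

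Among detoxification and heme genes, Fth1, the ferritin heavy chain, had a median of 736 CPM (470 to 961), and Ftl1, the light chain, of 91.0 CPM (62.1 to 162), with 65.7% of its 3′ windows shared with pseudogenes and other copies. Hmox1, heme oxygenase and a target shared by NRF2 and BACH1, was at 32.7 CPM in tumor 1 and at 10.6 to 18.2 CPM in the others. Erythroid markers reached a sum of 864 CPM in tumor 3, against at most 69.4 CPM elsewhere, and Hmox1 in that tumor was at 10.9 CPM, among the lowest. Sod1 and Sod2, the superoxide dismutases of cytosol and mitochondria, had medians of 376 CPM (280 to 780) and 123 CPM (86.1 to 142), with 18.3% and 9.16% of their 3′ windows shared with other genes, and Sod1 was highest in tumor 1. Of the genes of lipid peroxide defence and its substrates, Acsl4 had a median of 403 CPM (245 to 563) and Dhodh of 40.2 CPM (22.3 to 47.0).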

How the data were processed

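QuantSeq 3′ reads were trimmed (bbduk), aligned (STAR 2.5, GRCm38/mm10) and counted per gene (HTSeq) by the authors, who deposited raw counts without normalization. The annotation release, the strand setting and the use of molecular identifiers are not given in the sources used here. Lines naming no gene were left out. They held reads in no annotated feature or ambiguous between genes, 16.1 to 41.4% of the deposited counts. CPM used the total on genes, and TPM the union exon lengths of GENCODE M21, which held 47224 of the 47643 identifiers. The members, lists and tests were chosen with earlier results of these data known. Genes passed edgeR's filterByExpr (minimum count 10, minimum total 15), and the score was tested with edgeR 4.0.16 (quasi-likelihood, TMM) in R 4.3.3, with Benjamini-Hochberg adjustment over all 12563 genes. The test was checked on simulated data with slopes larger than any of the 9 genes had, so the check says nothing about slopes of their size. DESeq2 1.42.0, other scalings, filters, scores and leaving out each tumor were alternatives. Correlations used Python 3.11.15 and scipy 1.17.1. The text names the 9 genes, the 2 most abundant listed genes of each role, any called or with a tumor past Dixon's value, and the 3 genes most like Nqo1 and Srxn1. Comparison of hypoxia classes was not made, and 1 gene listed with the members is not reported here.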

Additional observations from a re-analysis of the deposited data

Results flagged for a closer look

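Measures were picked out in which the highest or lowest tumor lay apart from its neighbour by more than 0.625 of the whole range, Dixon's 95% critical value for 6 values. This held for 17 of 87 measures, against about 4.35 that chance at 1 in 20 would give if measures were independent, and for 16.1% of all 12563 genes. In 13 of the 17 the tumor was tumor 1, as it was for 1441 of the 2021 genes singled out over the whole table.

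Of the 9 genes, Txnrd1 stood out in tumor 4 (gap of 0.705 of the range), and the ratio of Srxn1 to Prdx1 stood out in tumor 1 (0.763). Among other pathway genes, tumor 1 stood above the rest for Pgls (0.746), Taldo1 (0.692), Dpp3, whose protein binds KEAP1 (0.673), Hmox1 (0.658), Gpx3 (0.833), Gstm5 (0.761), Sod1 (0.688), Prdx2 (0.742), Prdx5 (0.707), Prdx6 (0.785), Txn2 (0.855) and Txnrd2 (0.653). Part of the 3′ end of Prdx2 is overlapped by Junb on the opposite strand. Akr1b3 stood out in tumor 2 (0.662) at 5.18 CPM, and all windows of its 3′ end are shared with another annotated gene. The erythroid markers (0.926) and the adipocyte markers (0.761) stood out in tumor 3, the second at no more than 2.67 CPM.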

How the results depend on the processing

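No paired analysis was possible because the 6 tumors form 1 group. The count of genes associated with the score was 0 in the fit reported, 19 by DESeq2's Wald test (17 with a positive and 2 with a negative slope), 10 without a filter on low counts, and 0 to 2 when 1 tumor was left out, the 2 without tumor 1. It stayed at 0 with DESeq2's size factors, both other forms of the score, and the identifier prefix as a term. None of the 9 genes was called under any of these.

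When 1 tumor was left out, slopes on the score changed sign for 4 genes: they then ran from -0.10 to 0.79 for Gclc, -0.19 to 0.20 for Gclm, -0.62 to 0.15 for Nqo1 and -0.0031 to 0.55 for Txnrd1, and kept their sign for the other 5 genes, running from 0.03 to 0.82 for Gpx4 and -0.89 to -0.18 for Srxn1 (0.16 to 0.55 for Nfe2l2, 0.13 to 0.37 for Prdx1, -0.42 to -0.19 for Keap1). On the CPM scale without TMM, 6 in place of 4 of the 36 pairs had an unadjusted exact p under 0.05, the r of Gclm with the score turned to 0.087, and the r of Nfe2l2 with Gpx4 came to 0.756 (exact permutation p = 0.05). Per length, the mean log2 difference turned to -0.43 for Txnrd1 over Nfe2l2, -1.11 for Gclc over Nqo1 and 0.77 for Nqo1 over Srxn1. The few counts of Gpx4 limit its precision. Of the values without tumor 1, the folds over tumors of single genes and of ratios were added after the data were seen.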
